A study of Mus musculus with 2 samples.

Results

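Conventional CD4 T cells are the CD4-bearing T cells that lack the regulatory program, and they were examined here in tumours grown from MC38, a line derived from a mouse colon adenocarcinoma. A barcode was counted as one when it held at least 3 UMIs (molecular barcodes, of which each marks 1 captured RNA molecule) of Cd3d, Cd3e, Cd3g and Trac together and at least 1 UMI of Cd4. It also had to hold 0 UMIs of Cd8a, Cd8b1, Foxp3, Il2ra, Ikzf2 and Trdc and fewer than 10 UMIs of the macrophage genes C1qa, C1qb, C1qc, Lyz2 and Csf1r together. This rule found 139 cells among 9059 kept barcodes. Members were thus chosen by these transcript counts, whose values describe the gate and are not findings.

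Immune cells were taken from untreated tumours on day 14 after inoculation and profiled in droplets with the 10x single-cell RNA method. One library came from wild-type mice (WT) and the other from mice of the genotype Ifnar1-SA, an allele of Ifnar1, the gene for 1 chain of the receptor that senses type I interferon. What SA stands for, how many animals entered each library and whether cells were sorted or pooled is not stated in the sources used here. The labels call the cells both infiltrating immune cells and CD8 T cells. Each genotype is 1 library, so no difference between genotypes could be tested. Intervals are 95% intervals that cover counting error only, and "higher" and "lower" describe these libraries.

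CD4 T cells recognise peptides on MHC class II molecules and help other cells through surface ligands, above all CD40 ligand (Cd40lg), and through secreted cytokines. They divide into helper subsets known by their regulators and products, such as T-bet and interferon gamma in type 1 helper cells. Type I interferon, read through the Ifnar1 and Ifnar2 receptor chains, induces a common set of antiviral genes in nearly all cells, T cells included.

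The 139 cells comprised 64 WT and 75 Ifnar1-SA cells. Their median depth was 4146.5 UMIs in WT (range 1006 to 23364) and 3601 UMIs in Ifnar1-SA (1021 to 14873), and their summed UMIs were 298200 and 300637. The sums are nearly equal, so both libraries measured genes in these cells with like precision. The whole libraries held 55497066 and 62732220 UMIs. Among kept barcodes 7 sequences occurred in both libraries, and 0 sequences were conventional CD4 T cells in both.

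The label was checked against markers that the rule did not use. Cd40lg was far above its level in the regulatory T and CD8 T gates, as given below. The fixed markers of neutrophils (5 genes) and red cells (4 genes) were all at 0. The 8 markers of B and plasma cells summed to 23.5 CPM in WT against 33.3 CPM in Ifnar1-SA (CPM, the summed UMIs of a gate brought to the same total in each library), in 6 cells of each library, and 6 of them were at 0 in both, Cd79a and Ms4a1 included. Of the 3 invariant NKT markers Zbtb16 was at 0, and the set summed to 60.4 and 116 CPM, nearly all of it Slamf1, which other T cells also express. The regulatory T markers Ikzf4, Lrrc32, Ccr8 and Gpr83 summed to 13.4 and 19.96 CPM in 4 and 6 cells, while Foxp3, Il2ra and Ikzf2 were at 0 by the rule. Activation genes shared with regulatory T cells were present. Of 19 regulatory T genes outside the gate 10 were measured, Ctla4, Tnfrsf4 and Tnfrsf18 among them, and these summed to 1858 and 2056 CPM. In the regulatory T gate 16 of the 19 were measured and summed to 6362 and 7089 CPM. These sums therefore cover unlike sets of genes.

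Transcripts of marker genes of other cell types were spread thinly over most cells and stood high in a few. The 12 macrophage and monocyte markers summed to 845 CPM in WT against 1663 CPM in Ifnar1-SA, with at least 1 UMI in 57 of 64 and 67 of 75 cells. They include the rule genes C1qa, C1qb, C1qc, Lyz2 and Csf1r, which the rule holds below 10 UMIs per cell. They also include Ly6c2, at 211 and 492 CPM here, which stood at 531 and 953 CPM in the CD8 T gate. The sum is therefore not a measure of macrophage RNA alone. The 11 dendritic markers summed to 1774 and 536 CPM, in 27 and 47 cells. The 9 NK and innate lymphoid markers (through Tyrobp and Fcer1g) summed to 121 and 383 CPM, in 14 and 27 cells, with Ncr1 and Eomes at 0. The 5 plasmacytoid dendritic markers summed to 580 and 715 CPM in 44 and 55 cells, of which Bst2, also on the type I interferon list, made up 563 and 705 CPM. One WT cell held 456 of the 512 WT UMIs of MHC class II genes and Cd74. Another WT cell, at 23364 UMIs the deepest of all, held all 103 UMIs of fibroblast markers. In Ifnar1-SA 1 cell held 126 of the 292 UMIs of Apoe, Fcer1g and Tyrobp. In all, 3 WT and 3 Ifnar1-SA cells held at least 10 UMIs of 1 of these sets. Named genes that rest on them are given with and without these 6 cells, a choice made after seeing the data. The marker sums above are given only with them.

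At the edges of the rule, 3 WT and 5 Ifnar1-SA cells had exactly 3 T cell receptor complex UMIs, and 2 and 4 barcodes with 2 such UMIs stood just outside. Exactly 1 Cd4 UMI was found in 28 WT and 37 Ifnar1-SA members. Macrophage genes reached 5 to 9 UMIs in 3 and 7 members, while 19 and 42 barcodes were left out with 10 or more and 0 had 10 to 14. The regulatory genes Il2ra and Ikzf2 left out more cells than the macrophage limit did. A single UMI of Il2ra alone kept out 12 WT and 20 Ifnar1-SA barcodes, and a single UMI of Ikzf2 alone kept out 15 and 13.

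Conventional CD4 T cells were a small part of the infiltrate in both libraries. They made up 1.58% of kept barcodes in WT (interval 1.22 to 2.01%) against 1.5% in Ifnar1-SA (interval 1.18 to 1.88%), and these intervals overlapped almost fully. Among gated T cells they were 3.61% of 1774 WT cells, with an interval of 2.79 to 4.58%, against 4.44% of 1691 Ifnar1-SA cells, with an interval of 3.5 to 5.53%, again overlapping. Most Foxp3-negative CD4 T cells were not conventional by this rule: 133 WT and 148 Ifnar1-SA cells without Foxp3 carried Il2ra or Ikzf2, and the conventional cells were 32.5% and 33.6% of all Foxp3-negative CD4 T cells.

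Set against other T cells, conventional CD4 T cells were more numerous per CD8 T cell in Ifnar1-SA and had overlapping intervals per regulatory T cell. There were 20.4 conventional CD4 T cells per 100 cells of the regulatory T gate (Foxp3-positive) in WT (15.4 to 26.8) against 16.8 in Ifnar1-SA (13.0 to 21.5). There were 6.24 per 100 cells of the CD8 T gate in WT (4.77 to 8.04) against 10.6 in Ifnar1-SA (8.26 to 13.5), and these intervals did not overlap. The CD8 T gate itself was 57.8% of gated T cells in WT and 41.8% in Ifnar1-SA. The sources used here name no sort or gate before loading that could set these shares, and its part was not tested.

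**Figure D1:**
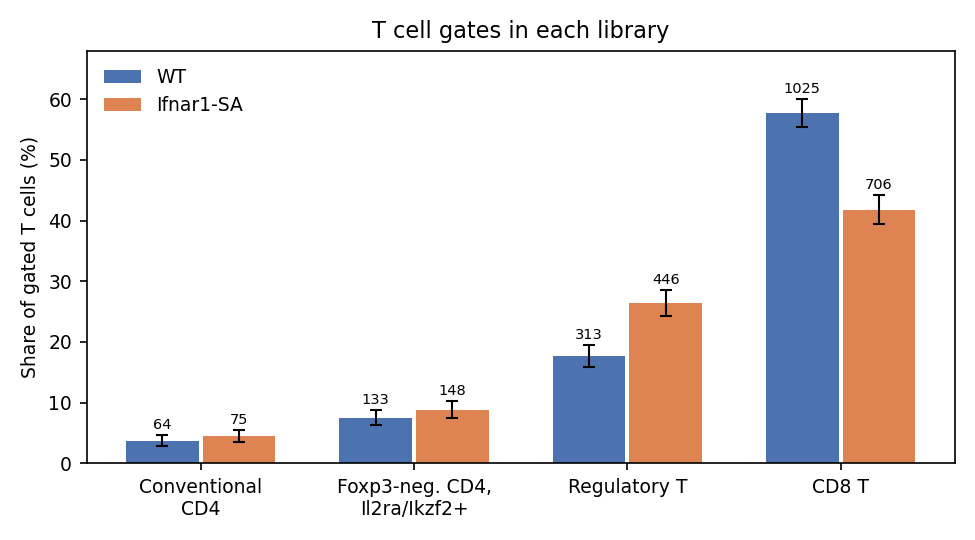
Share of gated T cells (%, vertical axis) in 4 T cell gates for the WT (blue) and Ifnar1-SA (orange) libraries; bars show the share, error bars the exact 95% binomial interval and numbers the cells. Conventional CD4 T cells were 3.61% and 4.44% with overlapping intervals, the smallest of the 4 gates in both libraries.

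Sex-linked transcripts differed between the libraries. In WT 59 of the 64 conventional CD4 T cells held Xist alone, and 0 held Y-linked transcripts. In Ifnar1-SA 57 held Xist alone, 2 held Y-linked transcripts alone and 16 held neither. Cells with Y-linked transcripts were 3.39% of those with either kind (0.41 to 11.7%), against 23.1% in the Ifnar1-SA CD8 T gate (19.8 to 26.7%). The low share was not particular to these cells. In Ifnar1-SA it was 4.74% in the regulatory T gate (2.92 to 7.22%). It was 9.23% in the Foxp3-negative CD4 T cells with Il2ra or Ikzf2 (4.86 to 15.6%). Both intervals overlapped that of conventional CD4 T cells.

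Helper ligands stood higher in conventional CD4 T cells than in the regulatory T and CD8 T gates. Cd40lg (chromosome X, 57212143 to 57224042, plus strand, GRCm38), the ligand that licenses B cells and dendritic cells, had 30 UMIs in each library, in 19 of 64 WT cells and 23 of 75 Ifnar1-SA cells. Its level was 101 CPM in WT against 99.8 CPM in Ifnar1-SA, and the log2 ratio was -0.01 with an interval of -0.79 to 0.77, so a difference of up to 1.5-fold in either direction could not be seen at this depth. The levels were 3.12 and 7.93 CPM in the regulatory T gate and 2.79 and 7.76 CPM in the CD8 T gate. In the Foxp3-negative CD4 T cells with Il2ra or Ikzf2 Cd40lg stood nearer, at 46.7 and 35.6 CPM. After every cell was thinned to 2000 UMIs, which left 55 WT and 64 Ifnar1-SA members and dropped 9 and 11, Cd40lg was detected in 23.6% and 18.8% of members (unthinned 29.7% and 30.7%). The thinned shares were 1.03% and 1.22% in the regulatory T gate and 0.081% in WT and 0 of 1563 cells in Ifnar1-SA, which allows a share of cells with a UMI of up to 0.192%, in the macrophage gate, a cell type that should lack the gene. Median depths before thinning were 5433 and 5112 UMIs in the regulatory T gate and 10655 and 8810.0 UMIs in the macrophage gate.

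The ligands CD30L (Tnfsf8) and RANKL (Tnfsf11) followed the same order. Tnfsf8 stood at 161 CPM in WT against 213 CPM in Ifnar1-SA, against 1.17 and 7.93 CPM in the regulatory T gate and 10.4 and 18.0 CPM in the CD8 T gate. Tnfsf11 stood at 245 and 256 CPM, against 9.36 and 6.90 CPM in the regulatory T gate and 25.8 and 47.0 CPM in the CD8 T gate. The Foxp3-negative CD4 T cells with Il2ra or Ikzf2 did not share this gap, with Tnfsf8 at 259 and 162 CPM and Tnfsf11 at 206 and 135 CPM. The 17 genes of the helper and costimulatory list measured there summed to 7389 and 8202 CPM. In conventional CD4 T cells the 16 measured genes summed to 4336 and 4943 CPM. These gates were cut from the same cells by their transcripts, so the contrasts are descriptions.

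Receptors for costimulation were shared with the other gates. Cd28, the primary costimulatory receptor, stood at 396 CPM in WT against 452 CPM in Ifnar1-SA, and at 289 and 423 CPM in the regulatory T gate. Tnfrsf4 (OX40) stood at 392 and 466 CPM, well below the 1805 and 2022 CPM of the regulatory T gate. Icos stood at 553 CPM in WT (50 of 64 cells) and 782 CPM in Ifnar1-SA (62 of 75 cells), a log2 ratio of 0.50 (0.21 to 0.79), which was 0.17 (-0.30 to 0.65) after thinning. Of the 18 helper and costimulatory genes on the list 16 were measured, meaning that their 2 libraries averaged 20 CPM or more. Among them 11 were higher in Ifnar1-SA, and the median log2 ratio was 0.18. For comparison, 47.2% of all 5074 measured genes were higher in Ifnar1-SA, with a median of -0.01. The interval lay wholly above 1 for Icos and Slamf1, and over all measured genes this held for 4.12%.

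**Figure D2:**
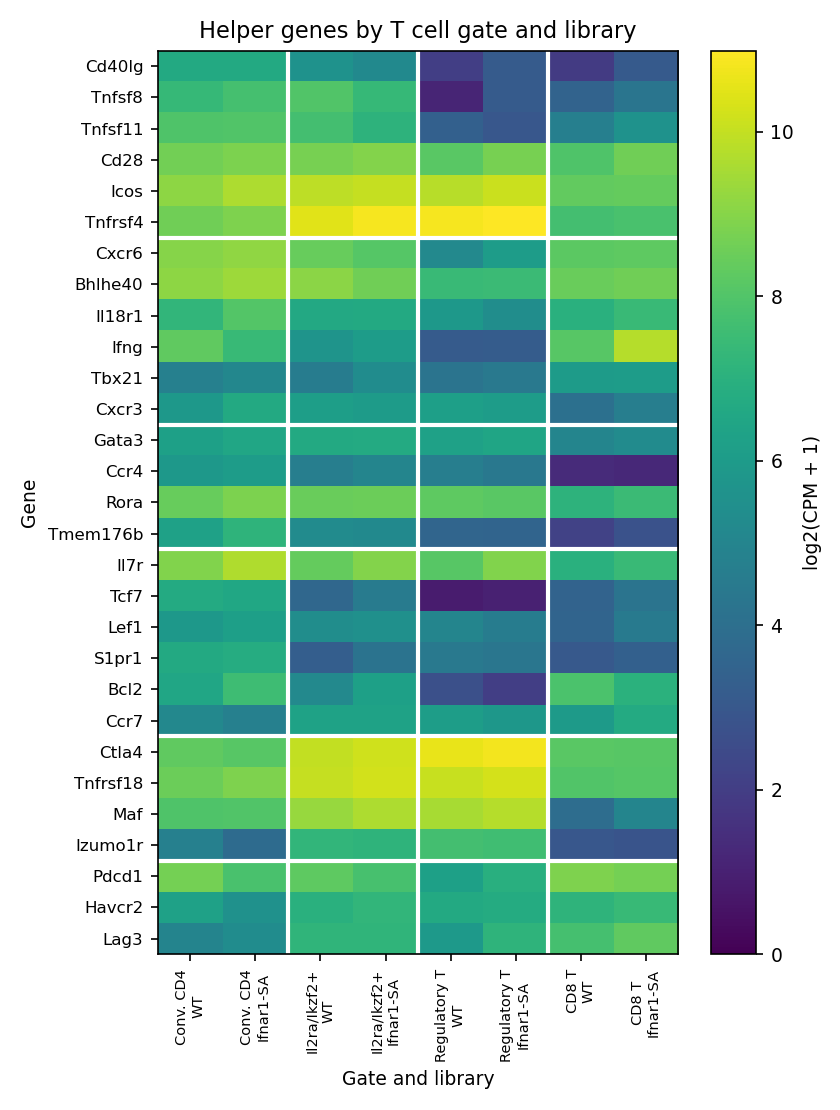
Levels of 29 helper, subset, memory and inhibitory genes (rows) as log2(CPM + 1) (colour) in 4 T cell gates of each library (columns); white lines separate gates and gene groups. Cd40lg, Tnfsf8, Tnfsf11, Tcf7 and S1pr1 were brighter in conventional CD4 T cells than in the regulatory T and CD8 T gates, and Ctla4 and Tnfrsf4 were brighter in the regulatory T gate.

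Type I interferon genes were higher in the Ifnar1-SA conventional CD4 T cells across most of the list. Of 66 genes on the list 60 were measured, 52 of them were higher in Ifnar1-SA and the median log2 ratio was 0.62. The interval lay wholly above 1 for 29 genes and wholly below 1 for 0, against 4.12% and 4.87% of all measured genes. It lay wholly above 1.5-fold for 8 genes, against 0.493% of all measured genes. Together the 60 genes summed to 13960.4 CPM in WT against 21498 CPM in Ifnar1-SA. Under the 18 alternative settings the median stayed between 0.48 and 0.89. Removing the top Scrublet doublet scores, counted among these settings, left all 64 WT and 75 Ifnar1-SA members in place, so it could only repeat the main value.

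Ifi27l2a was by far the most abundant gene of the list. This interferon-inducible mitochondrial protein gene (chromosome 12, 103442167 to 103443680, minus strand) had 1500 UMIs in WT and 2451 UMIs in Ifnar1-SA, or 5030 and 8153 CPM. Its log2 ratio was 0.70 (0.60 to 0.79), and it was found in 58 of 64 and 75 of 75 cells. Among the genes that lead the response, Irf7, the transcription factor that amplifies interferon signalling (chromosome 7, 141262706 to 141266481, minus strand), had 24 UMIs in 15 WT cells and 86 UMIs in 36 Ifnar1-SA cells. Its level was 80.5 CPM in WT against 286 CPM in Ifnar1-SA, and the log2 ratio was 1.83 (1.16 to 2.55). After thinning, an Irf7 UMI was held by 9.09% of cells in WT, interval 3.02 to 19.95%, against 29.7% in Ifnar1-SA, interval 18.9 to 42.4% (unthinned 23.4% and 48.0%).

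Isg15, a ubiquitin-like modifier (chromosome 4, 156199424 to 156200818, minus strand), stood at 493 CPM in WT against 712 CPM in Ifnar1-SA, and the log2 ratio was 0.53 (0.22 to 0.84). It was found in 26 of 64 WT cells and 50 of 75 Ifnar1-SA cells, and in 34.5% (22.2 to 48.6%) and 56.2% (43.3 to 68.6%) after thinning. More cells held it in Ifnar1-SA, and the highest cells held 27 UMIs in WT and 46 UMIs in Ifnar1-SA. The mean of per-cell levels gave a log2 ratio of 0.19, thinned counts gave 0.28 with an interval that spanned 1, and leaving out the 5 highest cells of each library gave 1.08. Macrophage-gate cells held Isg15 in 55.4% and 71.3% and Irf7 in 52.5% and 67.5% after thinning, so for these genes that gate is no background.

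Mndal, a nuclear protein gene of the interferon-inducible Ifi200 family, stood at 359 and 702 CPM, a log2 ratio of 0.97 (0.63 to 1.32). Ifit3, which takes part in antiviral RNA recognition, stood at 127 and 253 CPM, a log2 ratio of 0.99 (0.41 to 1.59). Other genes of the list had log2 ratios of 2.31 for Ifi44 (5 and 25 UMIs), 1.67 for Ifi204 (15 and 48 UMIs), 1.47 for Herc6 (15 and 42 UMIs) and 1.29 for Rtp4 (28 and 69 UMIs). Members of near-identical families such as Ifit3 with Ifit3b and the Ifi200 genes share sequence, and no source used here says how reads were split between them. The genes whose ratio lay below 1 were Ifit2, Irf9, Oas3, Pml, Tor3a, Uba7, Nmi and Lgals3bp, each with an interval that spanned 1.

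**Figure D3:**
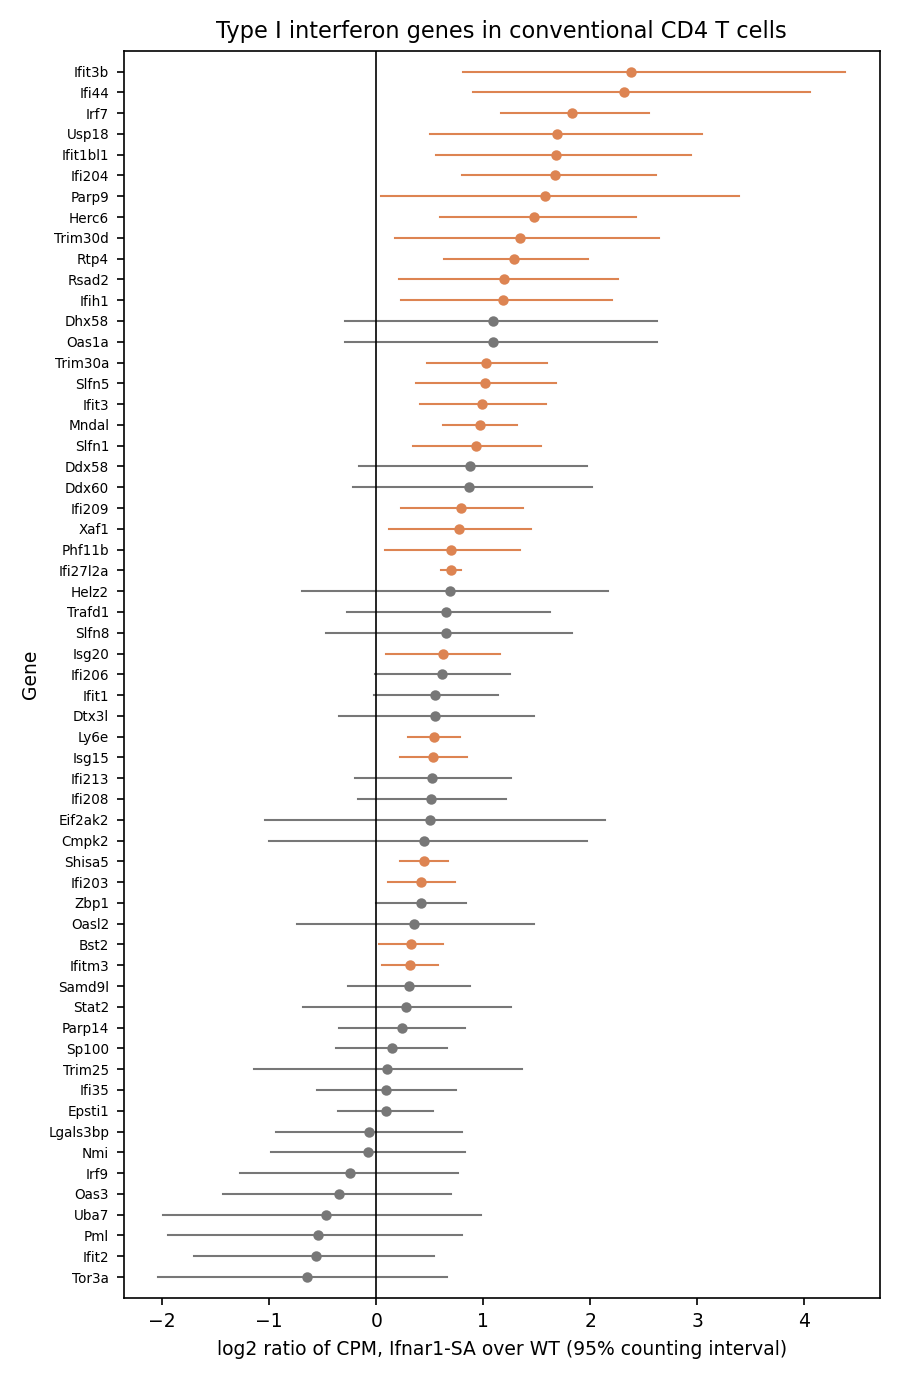
Log2 ratio of Ifnar1-SA over WT (horizontal axis) for measured type I interferon genes (vertical axis) in conventional CD4 T cells, with its 95% counting interval; orange marks intervals wholly above 0. Most points lie right of 0, and no interval shown lies wholly left of it.

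The receptor chains themselves were sparse. Ifnar1 (chromosome 16, 91485238 to 91507441, plus strand) had 12 UMIs in WT and 22 UMIs in Ifnar1-SA, or 40.2 and 73.2 CPM, a log2 ratio of 0.86 with an interval of -0.21 to 2.01. One Ifnar1-SA cell held 8 of the 22. Ifnar2 had 14 and 12 UMIs, a log2 ratio of -0.23 (-1.48 to 0.99). These counts do not tell the 2 alleles of Ifnar1 apart. Of the 14 interferon receptor and signalling genes, all measured, 9 were higher in Ifnar1-SA, beside 47.2% of all measured genes. Their median log2 ratio was 0.45, and the interval lay wholly above 1 for 1 of them.

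The promoters of 3 genes higher in Ifnar1-SA are shown because they hold the letters by which interferon-induced factors are known to bind, the interferon-stimulated response element. The motif searched was GAAA, any 2 bases and GAAA again, on both strands, overlapping matches included, in the RefSeq promoter table (GRCm38.p6, 250 bases before to 50 after each start). Each stretch is written 5′ to 3′ on the gene's strand with the matches in capitals, and a match written TTTC, 2 bases and TTTC lies on the other strand. Isg15 lies at chr4:156200850-156200921 (minus strand), Ifit3 at chr19:34583348-34583441 (plus strand) and Mndal at chr1:173880189-173880248 (minus strand).
Isg15: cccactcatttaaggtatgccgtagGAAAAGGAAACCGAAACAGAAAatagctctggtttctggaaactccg
Ifit3: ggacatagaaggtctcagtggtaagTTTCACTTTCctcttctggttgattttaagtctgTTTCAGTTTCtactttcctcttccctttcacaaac
Mndal: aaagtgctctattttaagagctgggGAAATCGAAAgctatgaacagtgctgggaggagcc

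In Isg15 the 3 matches overlap into 1 run that begins 78 bases before the start. In Ifit3 the 2 matches begin 156 and 122 bases before the start on the other strand. In the printed Mndal promoter a single match begins 36 bases before the start. RefSeq gives Mndal another start, with 1 match on the other strand at 54 bases before it (chr1:173879978-173880037, minus strand). The motif was present in 3.44% of all 32851 RefSeq promoters and in 4.82% of the 4087 genes measured in conventional CD4 T cells that have one. Of the 60 measured type I interferon genes 49 had a promoter in the table and 26 of these, 53.1%, held it. Among those whose interval lay wholly above 1 it was 15 of 22, or 68.2%. In the list that leans to interferon gamma, whose median log2 ratio was 0.10, it was 8 of 12, or 66.7%. In the naive, stem and memory list it was 0 of 9. A match is a description of the sequence and not a measured binding site.

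The same list was higher in Ifnar1-SA in the other T cell gates too. Over the 50 list genes measured in all 4 T cell gates, the median log2 ratio was 0.55 in conventional CD4 T cells, 0.77 in Foxp3-negative CD4 T cells with Il2ra or Ikzf2, 0.77 in the regulatory T gate and 0.31 in the CD8 T gate. The ratio was above 1 for 43, 50, 50 and 47 of the 50 genes in that order, beside 47.2%, 52.6%, 47.1% and 52.2% of all genes measured in each gate. Differences between gates have no test here. In single conventional CD4 T cells the list took a median of 1.07% of a cell's UMIs in WT (lowest 0.16%, highest 7.18%) and 1.76% in Ifnar1-SA (lowest 0.41%, highest 8.13%). The ranges overlapped almost wholly. The regulatory T gate had medians of 1.33% and 2.34%, and the CD8 T gate 0.71% and 1.01%.

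**Figure D4:**
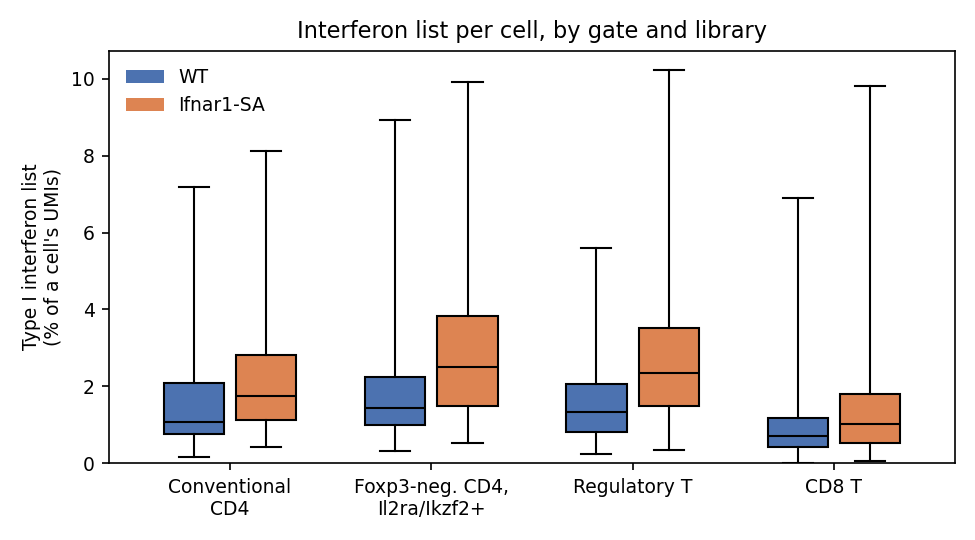
Percent of each cell's UMIs from the type I interferon list (vertical axis) in 4 T cell gates of the WT (blue) and Ifnar1-SA (orange) libraries; boxes span the quartiles with the median line and whiskers the lowest and highest cell. In conventional CD4 T cells the medians were 1.07% and 1.76%, and the ranges overlapped.

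Free RNA moved with this result. In barcodes under 100 UMIs, taken here as free RNA, the list summed to 13440.5 CPM in WT against 20647 CPM in Ifnar1-SA, with a median log2 ratio of 0.61, close to that of the cells. Apoe, a macrophage lipid carrier abundant in free RNA at 10543 and 10375 CPM, stood at 225 CPM in WT against 592 CPM in Ifnar1-SA members, or 2.13% and 5.71% of its free level. The macrophage limit of the rule favours low values of such genes. Free RNA at those shares would give the list 286 and 1178 CPM. One Ifnar1-SA cell held 71 of the 178 Apoe UMIs, and without the 6 mixed cells the shares were 2.27% and 2.44% and the list values 305 and 504 CPM. By Ctss, another macrophage gene, the shares were 12.3% and 17.6%, which would give 1649 and 3637 CPM of the 13960.4 and 21498 CPM measured, and 10.9% and 13.2%, or 1465 and 2729 CPM, without the 6 cells.

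Of the helper type 1 genes, most were measured, and interferon gamma was lower in Ifnar1-SA. From 19 genes 17 were measured, 10 were higher in Ifnar1-SA, beside 47.2% of all measured genes, and the median log2 ratio was 0.25. Ifng (chromosome 10, 118441046 to 118445892, plus strand) had 95 UMIs in 23 WT cells and 51 UMIs in 17 Ifnar1-SA cells. Its level was 319 CPM in WT against 170 CPM in Ifnar1-SA, and the log2 ratio was -0.91 (-1.43 to -0.40). One WT cell held 30 of the 95, and with the 5 top cells of both libraries left out the ratio was -0.70. Among cells with Xist alone it was -0.39, among cells with at least 5 T cell receptor complex UMIs it was -0.46, and in all 3 of these settings its interval spanned 1. In the CD8 T gate Ifng stood on the other side, at 279 and 866 CPM, a log2 ratio of 1.63 (1.56 to 1.71).

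Cxcr6, a chemokine receptor of tissue T cells, was the most widespread type 1 gene. It stood at 500 CPM in WT (39 of 64 cells) and 572 CPM in Ifnar1-SA (51 of 75 cells), a log2 ratio of 0.20 (-0.13 to 0.52). The regulatory T gate had 34.7 and 65.5 CPM, and the CD8 T gate 295 and 306 CPM. Most cells with Ifng also held Cxcr6, 16 of 23 in WT and 15 of 17 in Ifnar1-SA. Bhlhe40, a regulator of cytokine production, stood at 550 and 655 CPM. Tbx21, which encodes T-bet, had only 8 and 10 UMIs.

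Il18r1, a chain of the interleukin-18 receptor, stood at 151 CPM in WT (30 cells) and 266 CPM in Ifnar1-SA (39 cells), a log2 ratio of 0.82 (0.27 to 1.38), which was 0.69 (-0.08 to 1.49) among cells with at least 2 Cd4 UMIs. The chemokine Ccl5 stood at 1006 and 675 CPM, a log2 ratio of -0.58 (-0.84 to -0.31), with 87 of 300 WT UMIs in 1 cell. With the 5 top cells of both libraries left out its ratio was -0.20 (-0.75 to 0.34). Other cytokines were rare. Csf2 had 8 and 33 UMIs in 3 cells of each library, and 27 of the 33 were in 1 cell. Il2 had 8 UMIs in 3 WT cells and 1 UMI in Ifnar1-SA, and Tnf 3 and 7 UMIs.

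Genes of the other helper subsets were sparse. For type 2, Gata3 stood at 73.8 CPM in WT against 89.8 CPM in Ifnar1-SA and Ccr4 at 57.0 and 66.5 CPM, while Il4, Il5 and Il10 had fewer than 5 UMIs over both libraries. The other measured type 2 gene, Il1rl1, was lower in Ifnar1-SA, with a log2 ratio of -1.82 and an interval wholly below 1. For type 17, Rora stood at 349 and 452 CPM and Tmem176b at 77.1 and 140 CPM, while Il17a, Il17f, Il22 and Ccr6 had fewer than 5 UMIs. For follicular helper cells, Cxcr5, Il21 and Ascl2 had fewer than 5 UMIs. Of that list 8 of 14 genes were measured, 2 were higher in Ifnar1-SA, beside 47.2% of all measured genes, and the median log2 ratio was -0.66. Sh2d1a, the SLAM adaptor needed for follicular help, stood at 188 CPM in WT (31 cells) and 99.8 CPM in Ifnar1-SA (19 cells), a log2 ratio of -0.91 (-1.60 to -0.25). The Sh2d1a interval spanned 1 among cells with at least 2 Cd4 UMIs (-0.32), under a stricter macrophage limit of fewer than 3 UMIs (-0.70) and after thinning (-1.22).

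Of the memory genes, Tcf7, S1pr1 and Il7r stood above their CPM levels in the regulatory T and CD8 T gates. Il7r and Bcl2 were higher in Ifnar1-SA. By share of cells Il7r was not set apart from the regulatory T gate. After thinning it was held by 47.3% of WT and 53.1% of Ifnar1-SA members. The shares were 42.5% and 50.9% in the regulatory T gate, with overlapping intervals, and 22.7% and 26.1% in the CD8 T gate. Of 18 naive, stem and memory genes 11 were measured, and 7 were higher in Ifnar1-SA, beside 47.2% of all measured genes. The median log2 ratio of the list was 0.36, but it was -0.05 among cells with Xist alone. Il7r, the interleukin-7 receptor that sustains resting T cells (chromosome 15, 9505788 to 9530176, minus strand), stood at 476 CPM in WT (33 cells) and 808 CPM in Ifnar1-SA (44 cells). Its log2 ratio was 0.76 (0.46 to 1.07), and it was 0.41 among cells with Xist alone and 0.38 (-0.06 to 0.82) among cells with at least 2 Cd4 UMIs. Bcl2, a survival protein (chromosome 1, 106538178 to 106714274, minus strand), had 27 UMIs in 12 WT cells and 57 UMIs in 21 Ifnar1-SA cells. Its level was 90.5 CPM in WT against 190 CPM in Ifnar1-SA, and the log2 ratio was 1.07 (0.38 to 1.78), but 0.60 (-0.37 to 1.60) among cells with at least 2 Cd4 UMIs. Il7r was also held by 6 of the 12 WT and 18 of the 21 Ifnar1-SA cells with Bcl2.

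Tcf7, which encodes TCF-1, stood at 104 CPM in WT against 93.1 CPM in Ifnar1-SA, and the log2 ratio was -0.16 (-0.95 to 0.63). The regulatory T gate had 0.780 and 1.03 CPM, and the CD8 T gate 10.1 and 17.6 CPM. S1pr1, the receptor for leaving tissue, stood at 101 and 110 CPM, against 20.7 and 18.6 CPM in the regulatory T gate. The lymph node homing receptor gene Ccr7 was low, with 10 and 8 UMIs.

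Genes of the inhibitory receptor and exhaustion list were mostly lower in Ifnar1-SA. Of 16 genes 10 were measured, 8 were lower in Ifnar1-SA, beside 52.8% of all measured genes, and the median log2 ratio was -0.45. The interval lay wholly below 1 for Pdcd1, Nr4a2 and Rgs16, a share to read against 4.87% of all measured genes. Of these only Pdcd1 encodes an inhibitory receptor. Pdcd1, which encodes PD-1 (chromosome 1, 94038305 to 94052553, minus strand), had 124 UMIs in 31 of 64 WT cells and 69 UMIs in 23 of 75 Ifnar1-SA cells. Its level was 416 CPM in WT against 230 CPM in Ifnar1-SA, and the log2 ratio was -0.86 (-1.30 to -0.42), and it lay between -1.0 and -0.61 in every alternative setting. After thinning Pdcd1 was in 38.2% (25.4 to 52.3%) and 23.4% (13.8 to 35.7%) of cells. Ctla4 stood at 315 and 279 CPM, a log2 ratio of -0.17 (-0.62 to 0.27), well below the 1570 and 1756 CPM of the regulatory T gate.

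Cytotoxic genes were held by part of the cells. Of 20 genes 11 were measured, 7 were lower in Ifnar1-SA, beside 52.8% of all measured genes, and the median log2 ratio was -0.43. Klrd1, an NK-type lectin receptor chain, stood at 322 CPM in WT (25 cells) and 133 CPM in Ifnar1-SA (13 cells), a log2 ratio of -1.27 (-1.84 to -0.73). Nkg7, a granule membrane protein, stood at 641 and 436 CPM, a log2 ratio of -0.56 (-0.89 to -0.23), against 2246 and 2531 CPM in the CD8 T gate. Without cells holding other-lineage markers the Nkg7 ratio was -0.29 (-0.65 to 0.07). Both genes are also abundant in free RNA, Klrd1 at 325 and 270 CPM and Nkg7 at 421 and 399 CPM, and the part of free RNA was not tested.

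Several lists lay near the median of all genes. The median log2 ratio was 0.09 for T cell receptor activation genes, 0.13 for migration and adhesion, 0.07 for cytokines, 0.08 for proliferation, 0.20 for survival, 0.03 for MHC class I presentation, 0.16 for glycolysis and hypoxia, 0.10 for genes that lean to interferon gamma and 0.04 for regulatory T genes outside the gate. Of the last list, Il1rl1, the interleukin-33 receptor chain, had an interval wholly below 1, with 14 UMIs in 5 WT cells and 4 UMIs in 3 Ifnar1-SA cells, 46.9 and 13.3 CPM and a log2 ratio of -1.82 (-3.88 to -0.15). Within the first of these, Rel, an NF-kappa B subunit, stood at 208 CPM in WT against 412 CPM in Ifnar1-SA, and the log2 ratio was 0.99 (0.54 to 1.45). Within migration, the integrin chain Itgb1 stood at 389 and 249 CPM, a log2 ratio of -0.64 (-1.08 to -0.21), which was -0.017 (-0.54 to 0.50) without cells holding other-lineage markers. Of the proliferation genes, Top2a was found in 9 WT and 8 Ifnar1-SA cells, and 55 of 64 WT and 63 of 75 Ifnar1-SA cells had neither Top2a nor Mki67. Mki67 was found in 1.56% of WT and 8.0% of Ifnar1-SA cells before thinning and in 0 of 55 WT cells, which allows a share of cells with a UMI of up to 5.45%, and 3.12% of Ifnar1-SA cells after it.

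Genes of dissociation stress, which tissue digestion is known to induce, were mostly lower in Ifnar1-SA. Of 17 measured genes 3 were higher there, beside 47.2% of all measured genes, the median log2 ratio was -0.15 and the genes summed to 10634 CPM in WT against 9014 CPM in Ifnar1-SA. The interval lay wholly below 1 for the heat shock genes Hspa1a, Hspa1b and Hsph1 and wholly above 1 for Jun. Hspa1a, a heat shock chaperone, stood at 2042 CPM in WT against 1071 CPM in Ifnar1-SA, and the log2 ratio was -0.93 (-1.13 to -0.73). One WT cell held 174 of its 609 WT UMIs, and with the 5 top cells of both libraries left out the ratio was -0.37. Without cells holding Mki67 or Top2a the Hspa1a ratio was -0.19 (-0.43 to 0.04).

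Over all 5074 measured genes few stood clearly apart. The interval lay wholly above 1.5-fold for 25 genes (0.493%) and wholly below for 52 genes (1.02%). Of these, 5 and 31 were found in fewer than 10 cells. The 12 highest and 12 lowest that passed a minimum of 50 CPM, 30 UMIs and 10 cells are described next.

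Of the 12 named genes higher in Ifnar1-SA, 6 belong to the type I interferon list: Ifi44, Irf7, Ifi204, Herc6, Rtp4 and Mndal. Mir155hg, the host transcript of the lymphocyte activation microRNA miR-155, had 9 UMIs in 9 WT cells and 42 UMIs in 19 Ifnar1-SA cells, a log2 ratio of 2.21 (1.15 to 3.43). Phip, a bromodomain protein gene, had 25 and 66 UMIs, a log2 ratio of 1.39 (0.70 to 2.11), and no cell held more than 5. After thinning Phip had a log2 ratio of 0.52 (-0.58 to 1.68) and Ifi204 1.46 (-0.05 to 3.26). The ratios of the remaining 4 depended on few cells, though Apoe itself was found in 39 cells of each library. Apoe, Fcer1g and Ly6c2 had log2 ratios of 1.40, 2.14 and 1.22 over all cells and 0.08, 0.66 and -0.34 without the 6 mixed cells. For Ccl4, a chemokine, 21 of 33 Ifnar1-SA UMIs were in 1 cell.

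Of the 12 named genes lower in Ifnar1-SA, 6 rested in large part on mixed cells. The MHC class II genes H2-Eb1, H2-Aa and H2-Ab1 and their chaperone Cd74 had log2 ratios of -1.85, -1.83, -1.70 and -1.49 over all cells. Without the 6 mixed cells the ratios turned to 0.43, 1.27, 0.80 and 0.85. Tm2d2 and Timp2, at -2.69 and -1.57, became -0.96 and -0.60, with 22 of 32 and 26 of 47 WT UMIs in 1 cell. Without those cells 18 genes in all, in place of 52, lay wholly below 1.5-fold.

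Most of the other 6 lower genes were spread over more cells. Nr4a2, a nuclear receptor induced by antigen receptor signals, had 32 UMIs in 15 WT cells and 6 UMIs in 6 Ifnar1-SA cells, a log2 ratio of -2.43 (-3.98 to -1.15). Rgs16, a regulator of G protein signalling, had 72 UMIs in 19 cells and 27 UMIs in 11 cells, a log2 ratio of -1.43 (-2.12 to -0.77). Katna1, a microtubule-severing subunit, had 28 UMIs in 19 cells and 5 UMIs in 4 cells, a log2 ratio of -2.50 (-4.23 to -1.11). Nudt4 (31 and 5 UMIs) and Sptbn1 (24 and 6 UMIs) completed the set with Klrd1. Sptbn1 had 9 of its 24 WT UMIs in 1 cell. Without the 6 mixed cells its ratio was -1.33, and the interval of -3.00 to 0.14 spanned 1. Nudt4 had 16 of its 31 WT UMIs in 1 cell, and its ratio was -0.61 without the 5 highest cells of each library. After thinning, the intervals of Nr4a2 (-1.68), Katna1 (-1.80), Nudt4 (-0.80) and Sptbn1 (-0.96) spanned 1.

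**Figure D5:**
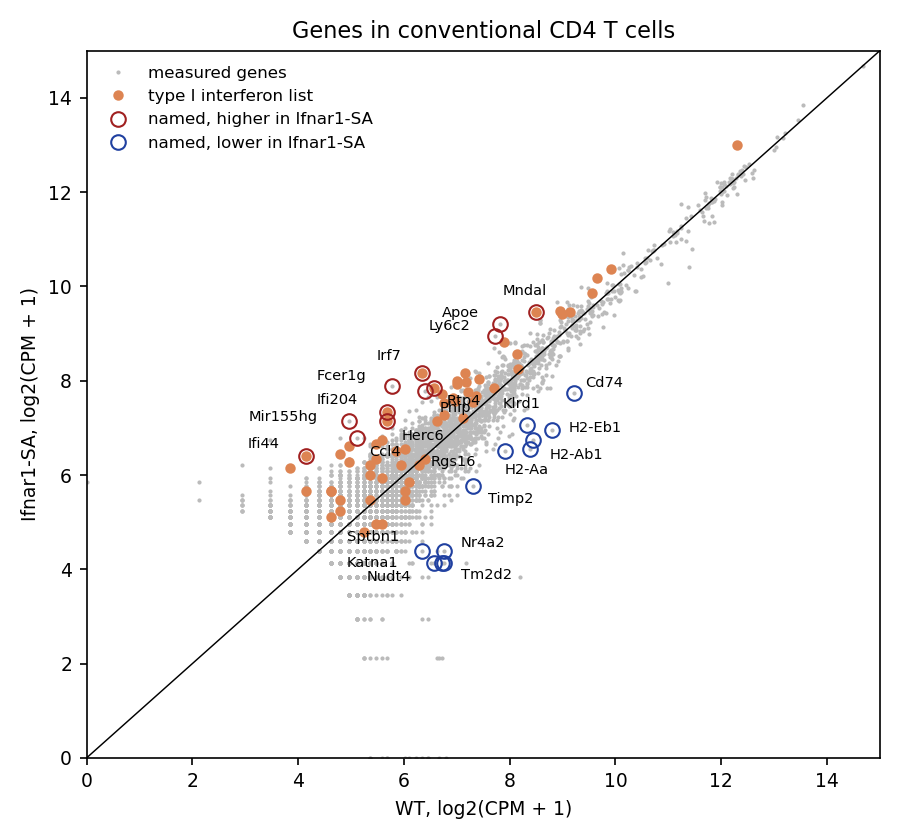
Level of each measured gene in conventional CD4 T cells as log2(CPM + 1) in WT (horizontal) and Ifnar1-SA (vertical); filled orange points are the type I interferon list and open circles the 24 named genes. Most genes lie along the line of equality, and 52 of the 60 interferon genes lie above it.

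Among themselves the cells fell into 4 groups when clustered without interferon, sex-linked and rule genes. Their leading genes defined them, so those levels are descriptions, and the groups are given no cell type name. The largest held 61 cells (29 WT, 32 Ifnar1-SA) and was led by Ccl5 at 1930 CPM, Ly6c2, the chemokine receptor Ccr2 and Cd74, with Apoe and Cst3 also among its 12 leading genes. It held 5 of the 6 mixed cells, and without them Ccl5 stood at 2037 CPM, Ccr2 at 274 CPM and Ly6c2 at 441 CPM, while Cd74 fell from 905 to 93.0 CPM, beside 90.3 CPM in the remaining cells, and Apoe from 741 to 304 CPM. The next held 42 cells (22 WT, 20 Ifnar1-SA) and was led by the chemokine Ccl1 at 2367 CPM, the granzyme Gzmc at 1481 CPM, Nrgn and Rgs16. In it Pdcd1 was found in 31 of 42 cells and Tnfrsf9 in 22.

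Another group of 18 cells (6 WT, 12 Ifnar1-SA) was led by Klf2 at 618 CPM and S1pr1 at 569 CPM, genes of recirculating T cells. It had Il7r at 2017 CPM in 17 of 18 cells, Tcf7 at 293 CPM and Cxcr6 at 114 CPM. The last group of 18 cells (7 WT, 11 Ifnar1-SA) was led by Xlr4c, Mir155hg and Mpp7. Cd40lg was found in all 4 groups, in 16, 11, 7 and 8 cells in the order given here. The Ccl1 and Gzmc transcripts came from few cells, 12 in each library for Ccl1 and 7 and 9 for Gzmc. The type I interferon list had median log2 ratios of 0.42 in the Ccl5 group, 1.38 in the Ccl1 group, -0.15 in the Klf2 group and 0.03 in the Xlr4c group, beside medians of all measured genes of 0.07, 0.10, -0.44 and -0.23. With 6 to 32 cells of each library in a group, these values are coarse. They are given with the mixed cells only, of which 5 were in the Ccl5 group and 1 in the Ccl1 group. Median depth in the Ccl1 group was 5567 UMIs in WT and 3413.5 UMIs in Ifnar1-SA. Shallow Ifnar1-SA cells of the Ccl1 group stood far out on the leading components used for clustering. They lay at 70.7 (1030 UMIs) and -16.5 (1021 UMIs) on the first component and at 69.4 (1114 UMIs) on the second. No grouping without these cells is given here.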

How the data were processed

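Immune cells of MC38 tumours were measured in 2 libraries of 10x single-cell RNA sequencing, 1 WT and 1 Ifnar1-SA, grouped by the genotype in the labels. The deposited values are raw UMI counts for each gene in each barcode. Per the file headers, the authors counted with Cell Ranger 4. The submitters' processing notes name build mm10, and no source used here names the annotation release. The library totals were 55497066 and 62732220 UMIs. Barcodes with at least 1000 UMIs, 500 genes and at most 10% mitochondrial UMIs were kept, and members were cut by UMIs as stated in the report. No barcode was removed as a doublet, and removing the top Scrublet scores was an alternative. That alternative took out no conventional CD4 T cell, so it could not change their expression ratios.

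UMIs of members were summed per library and scaled to CPM. Log2 ratios have exact conditional binomial 95% intervals and shares exact Clopper-Pearson intervals, all covering counting error only, since UMIs of few cells are not independent samples of the genotype. With 1 library per genotype there is no test. A count of 0 was given with the share that 3 counts would make. A gene counted as measured when its 2 libraries averaged 20 CPM or more. Where 2 genes share a symbol, neither was named. Named genes had at least 50 CPM in either library, 30 UMIs, UMIs in 10 cells and an interval wholly outside 1.5-fold, and the 12 highest and 12 lowest were taken without mitochondrial, ribosomal, antigen receptor, sex-linked, predicted and rule genes. Genes of the lists, Cd40lg, Ifnar1 and Ifnar2 were given in addition. The cells, the 21 gene lists and the 17 marker lists were chosen with earlier results of these data known.

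Members were clustered with scanpy 1.11.5 under Python 3.11.15 (Leiden resolution 0.6, 1000 variable genes, 20 components, 15 neighbours). Promoters came from RefSeq. Interval coverage was tested only on simulated independent Poisson counts, the model that the intervals assume. That test could not show how the intervals behave where UMIs gather in single cells. The alternatives changed the filters, the gate, the depth, the scaling and the cells counted. A few genes of the lists are not reported here by name, though they are counted in the list totals.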

Additional observations from a re-analysis of the deposited data

Results flagged for a closer look

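In 12 listed comparisons a gene stood on opposite sides in conventional CD4 T cells and in another T cell gate. Both counting intervals lay clear of 1. In each gate this is 1 library against 1, the difference was not tested, and no explanation was weighed. The share of all measured genes that meet the same condition is not given here. The count of 12 therefore does not show that such genes are unusual. The list is also not complete. H2-Eb1 had a log2 ratio of -1.85 in conventional CD4 T cells and 1.24 in both the regulatory T and CD8 T gates. H2-Aa, H2-Ab1 and Cd74 met the condition in both gates too, and Timp2 met it in the regulatory T gate. All of these are among the genes given above as resting in large part on mixed cells. In conventional CD4 T cells alone the interval lay wholly above 1 for 4.12% of all measured genes and wholly below 1 for 4.87%. Against the CD8 T gate 5 genes are listed. The survival gene Bcl2 had a log2 ratio of Ifnar1-SA over WT of 1.07 in conventional CD4 T cells and -0.87 in the CD8 T gate. Ifng had -0.91 and 1.63, Klrd1 -1.27 and 0.14, Rgs16 -1.43 and 0.20, and the tubulin gene Tubb5 0.64 and -0.66. One Ifnar1-SA cell held 69 of the 179 Tubb5 UMIs of conventional CD4 T cells. In these cells the interval of Bcl2 spanned 1 with at least 2 Cd4 UMIs (0.60), that of Ifng with at least 5 T cell receptor complex UMIs (-0.46), with Xist alone (-0.39) and without the 5 highest cells (-0.70), and that of Tubb5 without Mki67 or Top2a (-0.16), thinned (0.51) and without the 5 highest cells (0.26).

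Against the regulatory T gate 7 genes are listed. Hspa1a had log2 ratios of -0.93 in conventional CD4 T cells and 0.37 in the regulatory T gate, Il18r1 0.82 and -0.46, Nkg7 -0.56 and 1.18, and Pdcd1 -0.86 and 0.69. Rgs16 had -1.43 and 0.46, and Tubb5 0.64 and -0.49. The immediate early gene Jun had 1.45 and -0.64, on 8 and 22 UMIs of conventional CD4 T cells. In conventional CD4 T cells Hspa1a had a log2 ratio of -0.19 (-0.43 to 0.04) without cells holding Mki67 or Top2a. The interval of Il18r1 spanned 1 with at least 2 Cd4 UMIs (0.69), and that of Nkg7 with fewer than 3 macrophage UMIs (-0.21) and without other-lineage markers (-0.29). That of Jun spanned 1 in 4 settings, at a 20% mitochondrial maximum (0.82), with at least 2 Cd4 UMIs (1.63), with fewer than 3 macrophage UMIs (1.14) and without Mki67 or Top2a (1.38).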

How the results depend on the processing

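The type I interferon median kept its side in all 18 alternatives (0.48 to 0.89), and the lists not named below kept theirs or had a median within 0.2 of 0. Removing the top Scrublet scores is counted among them, but it took out no member and could not move an expression ratio. With at least 2 Cd4 UMIs the cells were 0.887% and 0.76% of kept barcodes and 2.03% and 2.25% of gated T cells in WT and Ifnar1-SA, and 39 genes lay wholly above 1.5-fold in place of 25. Ifnar1-SA barcodes with Y-linked transcripts only gave 0.372% and 1.02%, from 2 cells, so no expression was computed there. Genes wholly above 1.5-fold numbered 39 with Xist-only barcodes, 12 after thinning, 43 without the 5 highest cells of each gene and 14 at a minimum of 50 CPM. Genes wholly below, 52 in all cells, numbered 27, 18, 31 and 24 in these settings, 29 without other-lineage markers and 18 without the mixed cells. The mean of per-cell CPM has no interval and so no such count.

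Direction turned as follows, and the cause was not tested. H2-Eb1, H2-Aa, H2-Ab1 and Cd74 had log2 ratios of 2.36, 2.63, 3.17 and 2.37 with at least 2 Cd4 UMIs, 0.74, 0.68, 0.85 and 0.70 without Mki67 or Top2a, 0.50, 2.08, 1.18 and 1.16 without the 5 highest cells, and 0.43, 1.27, 0.80 and 0.85 without the mixed cells. The sterol list turned from -0.49 to 0.0498 without other-lineage markers, 0.28 with Xist-only barcodes, 0.12 thinned, 0.18 by per-cell CPM and 0.18 without the mixed cells. The type 2 list (3 genes) turned from 0.22 to -0.47 at a 20% mitochondrial maximum, -0.018 with at least 2 Cd4 UMIs, -0.030 without ribosomal and mitochondrial genes and -0.026 at 5 UMIs. The interferon receptor list reached -0.00087 at a 5% mitochondrial maximum and the naive, stem and memory list -0.054 with Xist-only barcodes. Fcer1g gave -0.16 and Ly6c2 -0.30 without other-lineage markers, and Ly6c2 -0.34 without the mixed cells. Ccl4 gave -0.0021 with at least 5 T cell receptor complex UMIs and -0.22 thinned, and Tubb5 -0.16 without Mki67 or Top2a. The alternative without the 6 mixed cells was chosen after seeing the data. No paired analysis was possible because each genotype is 1 library. With 64 and 75 cells, a gene of 30 UMIs in each library, such as Cd40lg, had an interval of -0.79 to 0.77.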
